A study of Mus musculus with 8 samples.

Results

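Transport proteins that carry amino acids, glucose and small monocarboxylates across cell membranes were followed in cultured mouse eosinophils, granule-bearing leukocytes of type 2 immunity. The genes were taken by name. Every protein-coding gene of the count table with a symbol of the Slc1, Slc2, Slc3, Slc6, Slc7, Slc16, Slc36, Slc38 or Slc43 family was used, with no value entering the choice. This gave 50 genes out of 12274 protein-coding genes and 15917 genes in the table. Another 37 genes with names of these 9 families were not analysed here. The families held 2 genes of Slc1, 6 of Slc2, 2 of Slc3, 6 of Slc6, 9 of Slc7, 13 of Slc16, 3 of Slc36, 7 of Slc38 and 2 of Slc43.

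The cells were blood eosinophils of IL-5 Tg mice of line NJ.1638 on a C57BL/6 background, enriched by magnetic removal of CD90 and B220 positive cells and cultured for 18 h in RPMI-1640 with serum. The line is named in the growth protocol, and in it an IL-5 transgene is driven in T cells. The genotype label reads WT, and the sources used here do not resolve this conflict. If the line is as named, all 4 groups came from animals with raised IL-5. The age of the mice is not given in the sources used here. In the first experiment, control cells received no cytokine (CN) and E1 cells received IFN-γ and TNF-α at 15 ng/mL. In the second, E0 cells received IL-5 alone at 10 ng/mL, and E2 cells received IL-5, GM-CSF and IL-4 at 10 ng/mL each with IL-33 at 30 ng/mL. Each group had 2 libraries. The p-values set differences of group means against the spread between libraries, estimated over the 4 groups together. The labels do not say how many animals a library holds or whether a replicate number marks the same animals in each group. Y-linked transcripts were present in replicate 1 of every group and Xist in replicate 2, so the 2 libraries of a group came from animals of different sex, and the spread between them holds that difference.

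Solute carriers of these families set what a cell can take up and release. Slc2 proteins let glucose and other hexoses pass down their gradient, and Slc16 proteins move lactate, pyruvate and related acids, or aromatic amino acids, creatine, carnitine and thyroid hormone, depending on the member. Slc7 light chains exchange amino acids at the surface, several of them only when bound to the Slc3a2 heavy chain, whereas Slc7a1 to Slc7a3 carry arginine and lysine alone. Slc1a4, Slc1a5 and Slc38 proteins carry mostly neutral amino acids, and Slc43 proteins carry branched-chain amino acids or nucleobases. Slc36 proteins and Slc38a9 act at the lysosome, and Slc6 proteins use sodium to take up serotonin, taurine, glycine and similar molecules. In leukocytes, uptake through these carriers limits protein synthesis, arginine use and glycolysis after activation.

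Starts of 5 of these genes are shown because 4 of them had the largest changes among genes with a RefSeq window at 10 CPM or more and the fifth, Slc7a11, is a known target of the amino acid response. Each sequence runs 5′ to 3′ on the strand of the gene, from 250 bases before to 50 bases after the annotated start, in GRCm38.p6 from RefSeq. The window of Slc2a6 is chr2:27027949-27028248 on the minus strand, and that of Slc6a4 is chr11:76998347-76998646 on the plus strand. Slc16a9 is at chr10:70245026-70245325 on the plus strand, Slc16a10 at chr10:40142205-40142504 on the minus strand and Slc7a11 at chr3:50443564-50443863 on the minus strand. Capitals mark matches to any of the searched motifs on either strand.
Slc2a6 promoter: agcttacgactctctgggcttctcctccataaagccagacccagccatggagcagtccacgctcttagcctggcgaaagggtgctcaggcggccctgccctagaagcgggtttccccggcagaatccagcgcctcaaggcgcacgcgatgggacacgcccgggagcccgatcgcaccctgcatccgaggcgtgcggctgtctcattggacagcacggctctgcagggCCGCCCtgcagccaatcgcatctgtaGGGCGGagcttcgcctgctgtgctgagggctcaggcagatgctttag
Slc6a4 promoter: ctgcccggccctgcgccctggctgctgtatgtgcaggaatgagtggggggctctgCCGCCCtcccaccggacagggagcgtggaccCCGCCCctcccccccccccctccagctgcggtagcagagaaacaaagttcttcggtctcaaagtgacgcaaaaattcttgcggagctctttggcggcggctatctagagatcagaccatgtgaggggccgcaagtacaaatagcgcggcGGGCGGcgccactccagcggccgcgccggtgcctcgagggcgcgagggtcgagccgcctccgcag
Slc16a9 promoter: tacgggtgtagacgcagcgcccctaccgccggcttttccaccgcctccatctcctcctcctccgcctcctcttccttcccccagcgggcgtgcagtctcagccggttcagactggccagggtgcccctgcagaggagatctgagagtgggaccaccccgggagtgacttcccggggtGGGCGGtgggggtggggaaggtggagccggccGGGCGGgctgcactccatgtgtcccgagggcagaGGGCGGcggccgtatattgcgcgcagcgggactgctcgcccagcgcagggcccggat
Slc16a10 promoter: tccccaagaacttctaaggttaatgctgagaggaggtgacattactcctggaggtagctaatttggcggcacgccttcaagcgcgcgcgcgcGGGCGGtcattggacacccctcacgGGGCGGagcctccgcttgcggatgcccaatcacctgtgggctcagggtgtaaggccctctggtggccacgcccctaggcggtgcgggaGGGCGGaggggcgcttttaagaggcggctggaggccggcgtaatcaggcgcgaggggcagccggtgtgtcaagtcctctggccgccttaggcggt
Slc7a11 promoter: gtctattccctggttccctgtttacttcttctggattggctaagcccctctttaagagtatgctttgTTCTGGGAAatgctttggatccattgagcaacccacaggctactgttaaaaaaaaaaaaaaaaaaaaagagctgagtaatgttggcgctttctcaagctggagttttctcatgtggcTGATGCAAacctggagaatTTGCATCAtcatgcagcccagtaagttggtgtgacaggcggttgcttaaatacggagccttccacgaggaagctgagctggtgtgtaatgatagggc

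The motifs searched were GGGCGG (GC box), TTCNNNGAA and TTCNNNNGAA (spacings bound by STAT factors), GAAANNGAAA (interferon response core), TGATGNAA (amino acid response core bound by C/EBP-ATF dimers), CACGTG (E-box), ACGTG (hypoxia response core, which lies within every E-box) and the NF-kappaB consensus. In the windows of Slc2a6, Slc6a4, Slc16a9 and Slc16a10 the capitals are GC boxes alone, written CCGCCC where they lie on the other strand. GC boxes stood in 35.7% of all 32851 RefSeq windows of this length and in 51.0% of the 51 windows of the 36 transporter genes that had one. The Slc7a11 window held TGATGNAA on both strands, at window positions 185 to 192 and 204 to 211, and TTCNNNGAA at 68 to 76. TGATGNAA stood in 3.97% of all windows and TTCNNNGAA in 8.30%. The shares of the other motifs were 6.95% for TTCNNNNGAA, 3.44% for GAAANNGAAA, 7.15% for CACGTG, 19.6% for ACGTG and 4.51% for the NF-kappaB consensus. Among the transporters, TGATGNAA also stood in a window of Slc1a4 and of Slc7a7, TTCNNNGAA in one of Slc38a9 and of Slc7a1, and the NF-kappaB consensus in windows of Slc36a4, Slc43a2, Slc6a12, Slc6a13 and Slc7a7. These matches are letters in a window and were not tested for binding. Slc7a2, Slc43a3, Slc2a3 and Slc7a5 had no window.

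Library totals ran from 60809057 to 95065752 counts, and the transporter genes held 0.337% to 0.438% of them. All 14 eosinophil markers were measured, with summed levels of 8227 to 10980 CPM (read counts scaled to a common library size). Of these 14, 3 were called lower in E1 against CN, where 8.08% of all genes were called lower. In E2 against E0, 4 were called higher and 8 lower (median log2 fold change -0.52), beside 17.0% and 18.5% of all genes. Among those called lower were Ear1 (-2.68), Prg3 (-2.29) and Ccr3 (-1.04), and the 4 called higher rose by at most log2 0.51. Markers of other blood cells also moved. The summed level of 12 neutrophil markers was 3077 to 3545 CPM in CN and 1639 to 2142 CPM in E1, and 3128 to 3893 CPM in E0 and 1114 to 1538 CPM in E2. Of these 12, 1 was called higher and 7 lower in E1, beside 9.19% and 8.08% of all genes. In E2, 0 were called higher and 6 lower, beside 17.0% and 18.5%. The 13 monocyte, macrophage and dendritic cell markers summed to 1061 to 1226 CPM in CN, 5327 to 5687 CPM in E1, 1283 to 1331 CPM in E0 and 1852 to 1928 CPM in E2. Ly6c2 alone was at 99.0 CPM in CN and 3999 CPM in E1, where 5 of the 13 were called higher and 2 lower. In E2 the higher sum came with 4 of the 13 called higher, Csf1r and Adgre4 being the most abundant. Another 7 were called lower, beside the same shares of all genes. Over the 13 markers, the log2 fold changes in E2 ran from -4.59 to 1.46, with a median of -0.93. The part of these markers and cell types in the results was not tested, and in these bulk libraries fewer cells of a type and less RNA per cell cannot be told apart.

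Among the transporters, 29 genes reached a group mean of 10 CPM, 15 reached 100 CPM and 9 stayed under 2 CPM in every group. Divided by exon length, which allows genes to be compared, Slc16a3 was the highest of the 50 in all 4 groups. Slc16a3 encodes MCT4, the lactate exporter of glycolytic cells. Its level was 104 ± 4.15 CPM per kb in CN, 95.2 ± 1.68 in E1, 83.3 ± 0.194 in E0 and 83.7 ± 6.39 in E2 (SD, n = 2). In CN it was followed by the glucose transporters Slc2a3 (76.9 CPM per kb) and Slc2a1 (64.6), the heavy chain Slc3a2 (60.6), the neutral amino acid exchanger Slc7a8 (58.9) and the taurine transporter Slc6a6 (58.5). Those from Slc2a1 down ran from 58.5 to 64.6 CPM per kb, a range close to the spread of Slc3a2 alone (SD 5.35), so neighbours in this order do not differ beyond that spread. Slc2a6 stood at rank 11 in CN and 2 in E1, and at rank 13 in E0 and 4 in E2, while Slc6a4 went from rank 15 in E0 to rank 2 in E2.

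**Figure D1:**
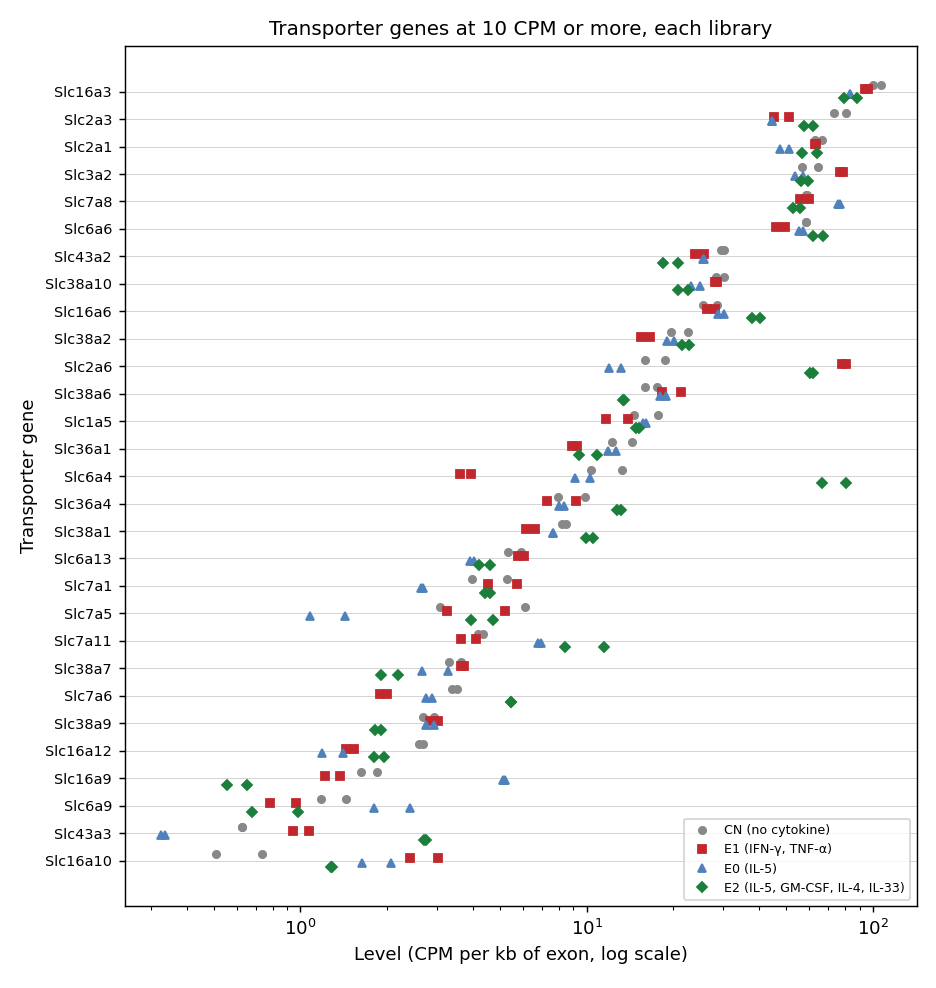
Level of the 29 transporter genes with a group mean of 10 CPM or more, as CPM per kb of exon on a log axis. Each point is 1 library, coloured by group. Slc16a3 lies at the top in every group, and the points of Slc2a6 and Slc6a4 spread furthest among the highly expressed genes.

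Summed over each family, the levels of treated and control libraries overlapped for Slc7 and Slc38 in E1 against CN and for Slc16 in E2 against E0, and for no other family of the 9. With 2 libraries a group this is common, as 54.1% of all single genes did not overlap in E1 and 73.1% in E2. For Slc3 in E2 the gap was small, from 58.1 CPM per kb in E0 replicate 2 to 58.2 in E2 replicate 1. The 6 Slc2 genes together stood at 163 ± 5.82 CPM per kb in CN and 195 ± 6.02 in E1, and at 110 ± 3.66 in E0 and 186 ± 0.186 in E2. Within this sum, Slc2a6 went from 17.4 CPM per kb in CN to 79.3 in E1, while Slc2a3 went from 76.9 to 48.2. In E1, 1 Slc2 gene was called higher and 1 lower, so the higher sum was not a rise of the whole family. In E2, Slc2a6 went from 12.6 to 61.2 CPM per kb. The 6 Slc6 genes stood at 77.6 ± 1.68 CPM per kb in CN and 58.5 ± 3.08 in E1, and at 72.8 ± 2.42 in E0 and 145 ± 13.7 in E2. Most of the higher Slc6 sum in E2 was Slc6a4, which went from 9.68 CPM per kb in E0 to 73.7 in E2. In E1 against CN, the Slc3 sum was higher, at 78.6 ± 1.58 CPM per kb against 61.7 ± 5.28, and the Slc36 sum was lower, at 17.6 ± 1.13 against 22.7 ± 0.197. The Slc43 sum was lower in both treated groups, at 25.8 ± 1.5 CPM per kb in E1 against 30.5 ± 0.542 in CN and at 22.4 ± 1.70 in E2 against 25.9 ± 0.221 in E0. Most of it was Slc43a2, at 29.9 CPM per kb in CN and 25.6 in E0, which was not called in E1. The other Slc43 gene, Slc43a3, was called higher in both comparisons. The Slc7 sum was 91.0 ± 1.47 CPM per kb in E0 and 79.3 ± 0.689 in E2, also a family in which single genes moved in opposite directions. The Slc16 sum differed less, at 139 ± 5.90 in CN, 131 ± 1.11 in E1, 125 ± 1.43 in E0 and 130 ± 7.88 in E2. Over all 50 genes the sum was 670 ± 8.86 CPM per kb in CN and 671 ± 18.2 in E1, whose libraries overlapped, and 594 ± 5.30 in E0 and 733 ± 6.00 in E2, whose libraries did not.

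**Figure D2:**
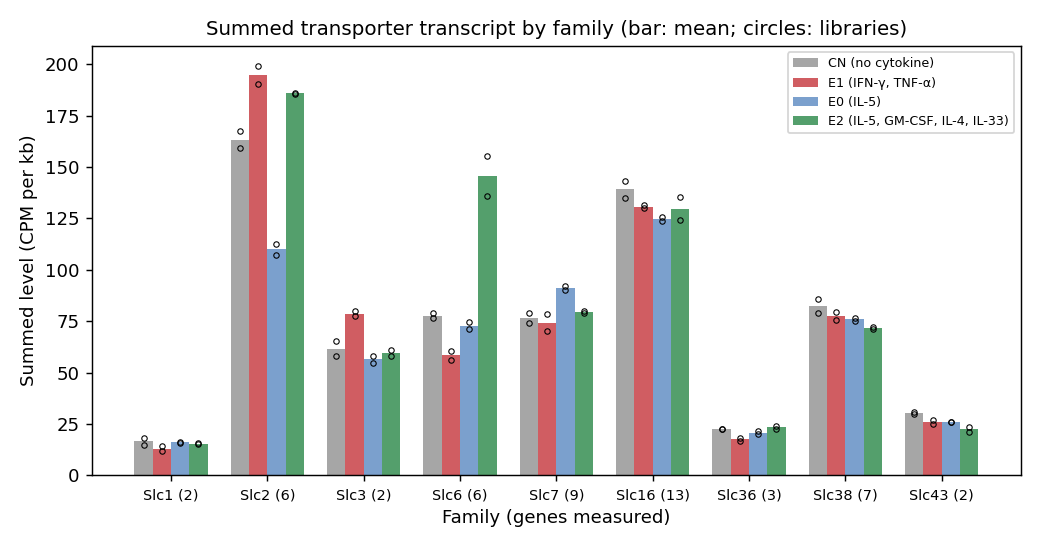
Summed level of each transporter family in CPM per kb of exon. Bars are group means, points are the 2 libraries of each group, and the number of genes measured stands beside each family name. The Slc2 sum is higher in E1 than in CN and in E2 than in E0, and the Slc6 sum is lower in E1 and higher in E2 than its control. Much of the higher Slc2 sums was Slc2a6, and much of the higher Slc6 sum in E2 was Slc6a4.

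IFN-γ with TNF-α changed 15 of the 50 transporter genes. In E1 against CN, 5 rose, 10 fell and 35 did not pass the test. The largest rises at 10 CPM or more were those of the hexose transporter Slc2a6 and the aromatic amino acid transporter Slc16a10, and the largest fall was that of the serotonin transporter Slc6a4. The calls come from edgeR's quasi-likelihood test with Benjamini-Hochberg adjustment over all genes, at an adjusted p below 0.05. The same test called 17.3% of all genes, 9.19% as higher and 8.08% as lower. The median log2 fold change was -0.12 over the transporters and -0.01 over all genes. When libraries were scaled by their totals alone, the split was 4 higher and 16 lower. The libraries of E1 and CN did not overlap in 34 of the 50 genes, against 54.1% of all genes.

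The combination of GM-CSF, IL-4 and IL-33 added to IL-5 changed 28 of them. In E2 against E0, 18 transporter genes rose, 10 fell and 22 did not pass the test. Slc43a3, Slc6a4 and Slc2a6 had the largest rises at 10 CPM or more and the carnitine carrier Slc16a9 the largest fall. Over all genes 35.5% were called, 17.0% as higher and 18.5% as lower, and the median log2 fold change was 0.16 over the transporters and -0.02 over all genes. Libraries of the groups did not overlap in 44 of the 50 genes, against 73.1% of all genes. By family, 4 of 6 Slc2 genes rose and 0 fell, and 5 of 9 Slc7 genes rose and 2 fell. Of 7 Slc38 genes, 1 rose and 3 fell, and Slc16 was split into 3 that rose, 3 that fell and 7 that did not pass. Calls of 2-fold or more numbered 10 in this comparison, against 11.1% of all genes, and 6 in E1 against CN, against 7.36% of all genes.

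**Figure D3:**
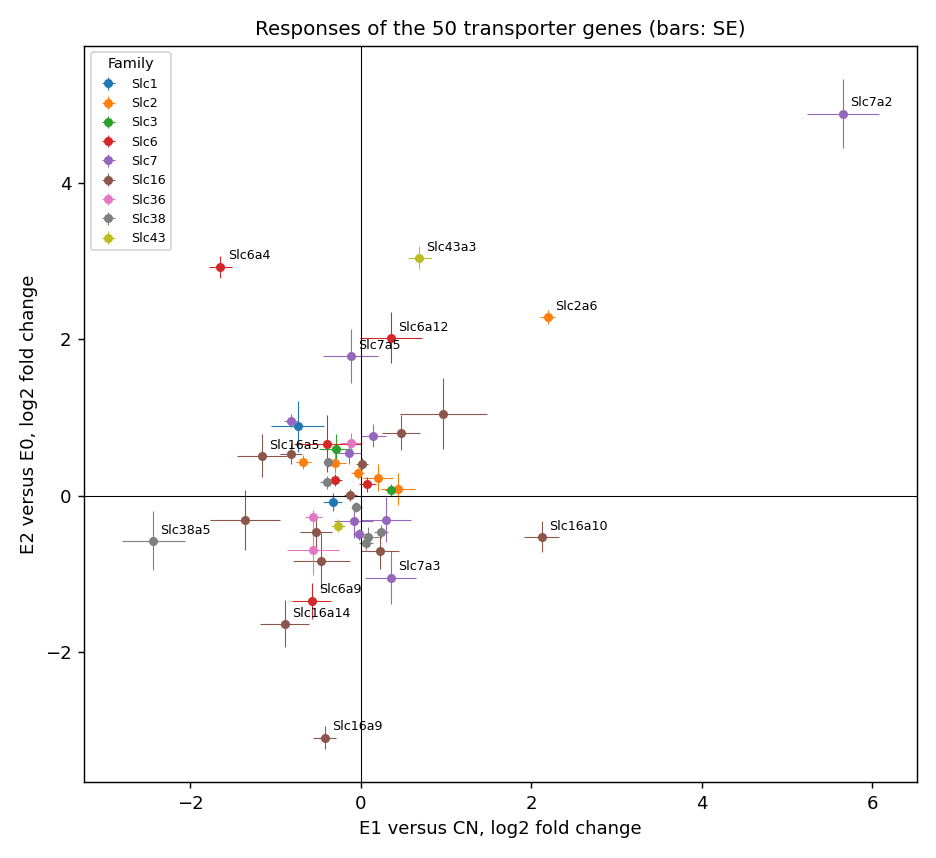
Log2 fold change of each of the 50 transporter genes in E1 against CN (horizontal axis) and in E2 against E0 (vertical axis), coloured by family, with standard errors as bars. Genes called at 2-fold or more in either comparison are named. Slc2a6 and Slc7a2 lie high on both axes, Slc6a4 lies to the upper left, Slc16a9 low on the vertical axis and Slc16a10 to the right.

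In all, 3 transporter genes rose in both comparisons, 5 fell in E1 and rose in E2, 0 fell in both and 0 rose in E1 and fell in E2. By the same test over all genes, the shares in the same order were 3.50%, 2.12%, 2.54% and 1.55%. Slc2a6, Slc7a2 and Slc43a3 made up the first group. The second was Slc2a3, Slc6a4, Slc7a6, Slc16a12 and Slc38a1. These comparisons share no library.

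Slc2a6 rose more than 4-fold in both comparisons. It encodes GLUT6, a hexose transporter of intracellular membranes such as the lysosome, and lies at chr2:27021363-27027998 on the minus strand of mm10 (ENSMUSG00000036067). It read 60.2 and 51.4 CPM in the CN libraries and 251 and 258 CPM in E1. It read 38.4 and 42.3 CPM in E0 and 199 and 194 CPM in E2. Every treated library was far above every control library. The rise was 4.57-fold in E1 (log2 2.19 ± 0.09 SE, adjusted p = 1.1e-06) and 4.87-fold in E2 (log2 2.28 ± 0.09, adjusted p = 1.9e-06). The difference between the responses was 0.09 ± 0.12 on the log2 scale and did not pass the test (adjusted p = 0.63). As a share of the summed Slc2 level per kb, Slc2a6 made up 10.7% of CN against 40.8% of E1, and 11.4% of E0 against 32.9% of E2.

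Of the surface glucose transporters, Slc2a3 fell in E1 and rose in E2. Slc2a3 (GLUT3, a high-affinity carrier) read 532 and 583 CPM in CN and 328 and 370 CPM in E1, a fall of 1.60-fold (log2 -0.67 ± 0.09, adjusted p = 0.0011). It read 321 and 323 CPM in E0 and 450 and 419 CPM in E2, a rise of 1.35-fold (adjusted p = 0.0064) that missed the threshold without E2 replicate 1 (adjusted p = 0.052). The untreated CN libraries thus held the highest Slc2a3 levels of the 8. Slc2a1 (GLUT1, the widespread basal carrier) was 227 ± 9.78 CPM in CN and 221 ± 2.00 in E1, which overlapped. It rose from 173 ± 8.88 CPM in E0 to 211 ± 17.0 in E2 (log2 0.29 ± 0.08, adjusted p = 0.021), a call lost without E0 replicate 1 (0.14) or E2 replicate 2 (0.16). Slc2a8, an intracellular hexose carrier, rose from 6.83 ± 0.241 to 9.13 ± 1.40 CPM in E2 (adjusted p = 0.042). That call was lost without E0 replicate 1 (adjusted p = 0.11), E0 replicate 2 (0.15) or E2 replicate 1 (0.27). Slc2a9, a urate carrier, and Slc2a12 stayed under 6 CPM and were not called.

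The main lactate carriers of the Slc16 family were not called in either comparison. Slc16a3 had log2 fold changes of -0.12 ± 0.08 in E1 and 0.01 ± 0.08 in E2, neither past the test. Slc16a1 (MCT1), the other main lactate carrier, was near the bottom of the range, at 0.244 ± 0.0727 CPM in CN, 0.485 ± 0.297 in E1, 0.705 ± 0.269 in E0 and 1.47 ± 0.208 in E2. It was not called in either comparison (adjusted p = 0.11 in E2), except with the 4 libraries of E2 and E0 fitted alone (0.042). Slc16a6, which releases ketone bodies from liver cells, rose from 144 ± 5.39 to 191 ± 7.86 CPM in E2 (log2 0.41 ± 0.07, adjusted p = 0.0036). Exons of Amz2 and Arsg lie opposite Slc16a6, and these rose by log2 0.35 and 0.40 in the same comparison.

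Slc16a9, a carrier of carnitine and creatine (MCT9), had the largest fall of the 50 genes in E2. Its libraries read 19.7 and 20.1 CPM in E0 and 2.15 and 2.51 CPM in E2. The E2 libraries were also below the CN libraries (6.30 and 7.16 CPM) and the E1 libraries (4.73 and 5.30 CPM). The fall in E2 was 8.55-fold (log2 -3.10 ± 0.14, adjusted p = 4.8e-06), and in E1 against CN the log2 fold change was -0.42 ± 0.13 (adjusted p = 0.066, and 0.033 with scaling by library totals alone). The responses differed by log2 -2.67 ± 0.19 (adjusted p = 4.3e-05). Gm7097 and Gm9877, which lie antisense to its exons at 4.86 and 2.03 CPM in E0, fell by log2 -3.18 and -2.98. The strand setting of the counting is not given in the sources used here, so reads of the gene and of these partners cannot be told apart. The start of Slc16a9 is the third of the printed windows, with its 3 GC boxes.

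Slc16a10, or TAT1, carries aromatic amino acids such as tryptophan and tyrosine. It moved in the other treatment. The CN libraries read 5.42 and 3.74 CPM and the E1 libraries 17.7 and 22.3 CPM, a rise of 4.36-fold (log2 2.13 ± 0.21, adjusted p = 0.00019). In the second experiment the values were 12.0 and 15.3 CPM in E0 and 9.49 and 9.44 CPM in E2, with no call (log2 -0.53 ± 0.20, adjusted p = 0.070), although DESeq2 (0.031) and the 4 libraries of that experiment fitted alone (0.026) called it lower. The difference of the responses was called (log2 -2.65 ± 0.28, adjusted p = 0.00036). Slc16a12, a creatine carrier, fell from 11 ± 0.209 CPM in CN to 6.23 ± 0.275 in E1 (log2 -0.82 ± 0.13, adjusted p = 0.0031). It rose from 5.41 ± 0.652 in E0 to 7.85 ± 0.479 in E2 (log2 0.54 ± 0.13, adjusted p = 0.014), and the second call was lost without E0 replicate 2 (0.089) or E2 replicate 1 (0.090).

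Among amino acid carriers, Slc7a2 had the largest fold change in both comparisons, from very low levels. It encodes CAT2, a carrier of arginine and other cationic amino acids that activated macrophages induce. It read 0.0843 and 0.0481 CPM in CN, from 12 reads in all, and 2.53 and 4.40 CPM in E1. In the second experiment it read 0.0644 and 0.0597 CPM in E0, from 9 reads, and 2.04 and 1.70 CPM in E2. All treated libraries were above all controls, and no treated library passed 5 CPM. The log2 fold changes were 5.66 ± 0.42 in E1 (adjusted p = 4.3e-05) and 4.89 ± 0.44 in E2 (adjusted p = 0.00012), and the responses did not pass the test of their difference (-0.77 ± 0.70, adjusted p = 0.48). Slc7a1 (CAT1), the widespread arginine carrier, was far higher, at 53.2 ± 10.5 CPM in CN, 59.0 ± 9.84 in E1, 30.6 ± 0.367 in E0 and 52.0 ± 1.67 in E2. It rose in E2 (log2 0.77 ± 0.15, adjusted p = 0.0054) and was not called in E1.

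Slc7a5 (LAT1) imports leucine, tryptophan and other large neutral amino acids together with Slc3a2. Its E0 libraries read 3.99 and 5.29 CPM and its E2 libraries 14.6 and 17.4 CPM, with no overlap. This was a rise of 3.44-fold (log2 1.78 ± 0.34, adjusted p = 0.0050). In the first experiment its libraries spread widely, with 11.4 and 22.7 CPM in CN and 12.1 and 19.3 CPM in E1, and no call was made (log2 -0.12 ± 0.33). The E2 level of 16 ± 1.98 CPM lay inside the range of the CN libraries. The partner chain Slc3a2 (CD98 heavy chain) rose in E1, from 214 ± 18.9 to 274 ± 4.88 CPM (log2 0.36 ± 0.08, adjusted p = 0.015), a call lost without CN replicate 1 (0.083) or E1 replicate 1 (0.062) and with scaling by library totals alone (0.057). In the second experiment it was 195 ± 8.38 CPM in E0 and 204 ± 7.94 in E2, which overlapped.

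Of the other light chains that pair with Slc3a2, Slc7a6 moved in opposite directions. It encodes y+LAT2, which exchanges arginine for glutamine. It read 16.1 and 15.5 CPM in CN and 8.70 and 9.17 CPM in E1, a fall of 1.77-fold (log2 -0.82 ± 0.08, adjusted p = 0.00026). It read 12.5 and 13.1 CPM in E0 and 24.8 and 24.9 CPM in E2, a rise of 1.94-fold (log2 0.95 ± 0.08, adjusted p = 1.0e-04). Slc7a8 (LAT2) was the most abundant Slc7 gene in every group. It fell from 383 ± 4.32 CPM in E0 to 271 ± 11.2 in E2 (log2 -0.50 ± 0.07, adjusted p = 0.0012) and stood at 295 ± 2.07 in CN and 290 ± 14.2 in E1. Within the summed level per kb of Slc7a5, Slc7a6, Slc7a7, Slc7a8 and Slc7a11, Slc7a8 took 86.9% in E0 and 72.8% in E2. Slc7a7, the other arginine exchanger, was 1.16 to 1.96 CPM in the group means and was not called.

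Slc7a11, the cystine-glutamate exchanger that supplies cysteine for glutathione, rose in E2 from 93.9 and 96.8 CPM to 117 and 160 CPM (log2 0.54 ± 0.13, adjusted p = 0.015). The gap between the E2 libraries was larger than that between the highest E0 and the lowest E2 library. The call was lost without E2 replicate 2 (adjusted p = 0.077), E0 replicate 1 (0.076) or E0 replicate 2 (0.056). In CN and E1 its libraries read 50.8 to 60.3 CPM, lower than in either group of the second experiment. Its window, the last of those printed, is the one with the paired amino acid response cores.

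Slc43a3, a carrier of purine nucleobases, rose in both comparisons, by more in E2. Its libraries read 2.79 and 2.79 CPM in CN and 4.2 and 4.78 CPM in E1 (log2 0.69 ± 0.14, adjusted p = 0.0095), a call lost when the 4 libraries of the comparison were fitted alone (0.054). They read 1.45 and 1.5 CPM in E0 and 12.3 and 12.1 CPM in E2, an 8.24-fold rise (log2 3.04 ± 0.15, adjusted p = 5.7e-06). The difference of the responses was log2 2.36 ± 0.20 (adjusted p = 9.5e-05). Its relative Slc43a2 (LAT4), which carries branched-chain amino acids, fell in E2 from 257 ± 2.13 to 197 ± 16.8 CPM (log2 -0.38 ± 0.08, adjusted p = 0.0067), a call lost without E2 replicate 2 (0.060). In E1 it was 249 ± 14.1 CPM against 300 ± 5.44 in CN, with an adjusted p of 0.054 by edgeR, 0.020 with scaling by library totals alone, 0.047 by limma-voom and 0.030 by DESeq2.

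Slc6a4, the serotonin transporter, had the largest difference between the treatments. It lies at chr11:76998603-77032340 on the plus strand (ENSMUSG00000020838). It read 60.0 and 47.1 CPM in CN and 16.3 and 17.9 CPM in E1. It read 46.4 and 41.4 CPM in E0 and 365 and 302 CPM in E2. No treated group overlapped its control, and the lowest E2 library stood far above the highest of the other 6 libraries (60.0 CPM). Slc6a4 fell 3.13-fold in E1 (log2 -1.65 ± 0.14, adjusted p = 9.0e-05) and rose 7.61-fold in E2 (log2 2.93 ± 0.14, adjusted p = 5.9e-06). The responses differed by log2 4.57 ± 0.20 (adjusted p = 2.6e-06).

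Slc6a4 is also a gene of platelets, basophils and mast cells, and their markers were read beside it. Of 5 platelet markers, Itga2b and Gp1bb were measured, with a sum of 204 to 210 CPM in E0 and 250 to 257 CPM in E2. Pf4, Ppbp and Gp9 were not analysed here. The sum of 5 basophil and mast cell markers (Mcpt8, Cpa3, Ms4a2, Fcer1a and Kit) was 10.6 to 12.3 CPM in E0 and 14.8 to 16.3 CPM in E2, and 16.5 to 28.4 CPM in CN and 13.6 to 14.1 CPM in E1. In E2, 1 of the 2 platelet markers was called higher and 0 lower. Of the 5 basophil and mast cell markers, 1 was called higher and 0 lower in E2, beside 17.0% and 18.5% of all genes. Their log2 fold changes in E2 had a median of 0.50 and reached 1.83. In E1, 1 of these 5 was called higher and 0 lower, beside 9.19% and 8.08% of all genes. In E2, Slc6a4 was at 334 ± 44.8 CPM. How much Slc6a4 such cells hold beside these markers was not measured, and their part in its change was not tested.

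The other Slc6 genes moved less. Slc6a6, the taurine transporter, was among the most abundant genes of the set. It fell in E1 from 495 ± 2.54 to 403 ± 21.7 CPM (log2 -0.30 ± 0.08, adjusted p = 0.033), a call lost without CN replicate 1 (0.14), CN replicate 2 (0.091) or E1 replicate 1 (0.16). In E2 it was 545 ± 30.1 CPM against 476 ± 11.4 in E0 and was not called by edgeR (adjusted p = 0.085), while DESeq2 gave 0.046. Slc6a9, the glycine transporter GlyT1, read 12.4 and 9.32 CPM in E0 and 5.05 and 3.47 CPM in E2, a fall of 2.54-fold (log2 -1.34 ± 0.23, adjusted p = 0.0029). Ccdc24 and Gm17114, whose exons lie opposite Slc6a9 at under 5 CPM, fell by log2 -1.24 and -1.32. Slc6a13, a GABA transporter, was not called in any of the 3 comparisons, at group means of 11.6 to 17.2 CPM.

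**Figure D4:**
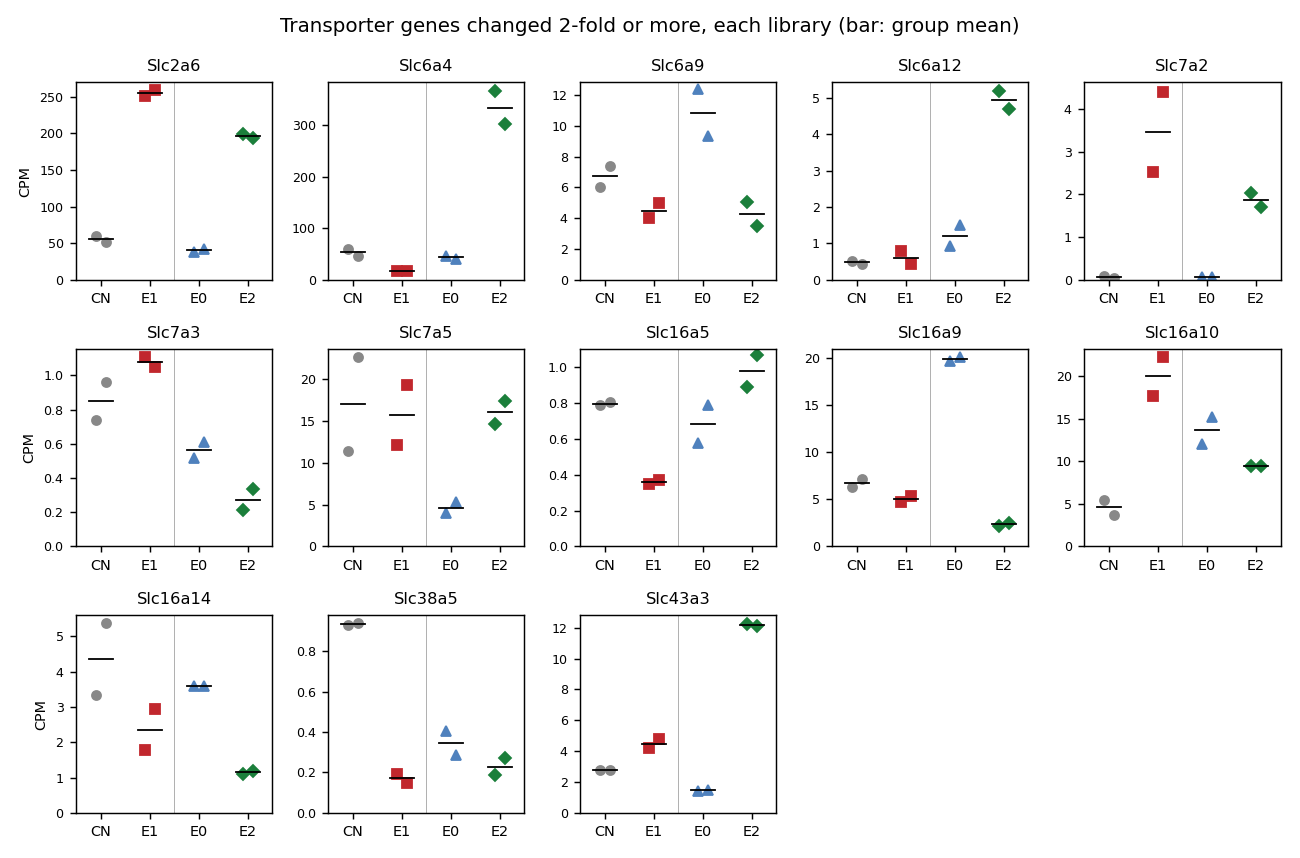
CPM of the 13 transporter genes called at 2-fold or more in E1 against CN or in E2 against E0. Each panel is 1 gene on its own linear axis from 0, points are libraries and bars are group means, and the grey line parts the experiments. Slc2a6 is high in both treated groups, Slc6a4 in E2 alone of the 4 groups, Slc16a10 is highest in E1 and Slc16a9 highest in E0.

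Among the 7 Slc38 carriers of glutamine and other neutral amino acids, 3 fell in E1, where 8.08% of all genes were called lower, and 1 rose and 3 fell in E2, where 17.0% rose and 18.5% fell. Slc38a1 (SNAT1), a sodium-coupled importer, fell from 144 ± 2.62 CPM in CN to 110 ± 5.49 in E1 (log2 -0.39 ± 0.06, adjusted p = 0.0026). It rose from 131 ± 0.296 in E0 to 176 ± 6.61 in E2 (log2 0.43 ± 0.06, adjusted p = 0.0011). Slc38a2 (SNAT2), which cells raise when amino acids are scarce, fell in E1 from 187 ± 18.6 to 142 ± 7.50 CPM (log2 -0.40 ± 0.08, adjusted p = 0.012). That call was lost without CN replicate 2 (0.066) or E1 replicate 1 (0.068), and Slc38a2 was not called in E2 (log2 0.17 ± 0.08, adjusted p = 0.14). Slc1a5 (ASCT2), a main glutamine carrier of dividing cells, was not called in any comparison, with 67.6 ± 9.45 CPM in CN, 53.7 ± 6.68 in E1, 66.5 ± 1.30 in E0 and 62.7 ± 1.12 in E2. In E1 it passed the threshold without CN replicate 2 (adjusted p = 0.032) or E1 replicate 1 (0.046) and with scaling by library totals alone (0.031). Slc1a4 (ASCT1) stayed under 1.5 CPM in every group mean and was called only for the difference of responses.

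Of the Slc36 and Slc38 carriers placed at the lysosome, Slc38a9 and Slc38a7 fell in E2 and Slc36a1 fell in E1. Slc38a9, which reports lysosomal arginine to the mTORC1 kinase complex, read 48.9 and 45.9 CPM in E0 and 32.0 and 30.3 CPM in E2 (log2 -0.61 ± 0.09, adjusted p = 0.0012). In E1 its libraries overlapped those of CN. Slc38a7, a lysosomal exporter of glutamine and asparagine, fell in E2 from 12.3 ± 1.81 to 8.50 ± 0.856 CPM (log2 -0.53 ± 0.13, adjusted p = 0.015), a call lost without E0 replicate 2 (0.096) or E2 replicate 1 (0.10). Slc36a1 (PAT1), a proton-coupled exporter of small amino acids, fell in E1 from 75.0 ± 8.69 to 51.0 ± 1.34 CPM (log2 -0.56 ± 0.10, adjusted p = 0.0063). In E2 it was 57.0 ± 5.71 CPM against 69.3 ± 3.16 in E0 and was not called (adjusted p = 0.063), except with the 4 libraries of E2 and E0 fitted alone (0.047). Slc36a4 (PAT4), a carrier of proline and tryptophan, rose in E2 from 53.4 ± 1.51 to 85.1 ± 2.10 CPM (log2 0.67 ± 0.13, adjusted p = 0.0054). Slc38a6 fell in E2 from 144 ± 5.38 to 105 ± 0.0222 CPM (log2 -0.46 ± 0.08, adjusted p = 0.0035), and Slc38a10 was not called, at 140 to 188 CPM.

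Another 8 genes were called under 5 CPM and are given here after their values were seen. Slc6a12, a betaine and GABA transporter, rose in E2 from 0.917 and 1.5 CPM to 5.18 and 4.69 CPM (log2 2.02 ± 0.33, adjusted p = 0.0022), and Slc16a14 fell from 3.60 and 3.60 CPM to 1.11 and 1.20 CPM (log2 -1.64 ± 0.30, adjusted p = 0.0041). Slc38a5 fell in E1 from 0.928 and 0.937 CPM to 0.191 and 0.150 CPM (log2 -2.43 ± 0.37, adjusted p = 0.0023). The other 5 were Slc16a5 in E1 and Slc3a1, Slc7a3, Slc16a7 and Slc16a13 in E2. Each of those 5 calls was lost without any 1 of the 4 libraries of its comparison, with adjusted p-values from 0.058 to 0.22. Exons of Prepl lie opposite Slc3a1, and Prepl rose by log2 0.65 in E2.

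The difference of responses, E2 minus E0 less E1 minus CN, was called for 24 of the 50 genes, 18 higher and 6 lower. Over all genes 25.2% were called, 11.3% as higher and 14.0% as lower. Of these 24, 12 held when any 1 of the 8 libraries was left out. They were Slc2a3 (log2 1.11 ± 0.12), Slc6a4, Slc7a6 (1.77 ± 0.12), Slc16a12 (1.36 ± 0.19), Slc38a1 (0.81 ± 0.08), Slc38a2 (0.57 ± 0.12) and Slc43a3 as higher. Slc7a8 (-0.47 ± 0.10), Slc16a9, Slc16a10, Slc38a6 (-0.70 ± 0.12) and Slc38a9 (-0.67 ± 0.12) were lower. For Slc7a5 the difference was log2 1.90 ± 0.47 (adjusted p = 0.020), lost without E1 replicate 1 (0.052), E0 replicate 1 (0.066) or E2 replicate 2 (0.071). Slc16a5 (adjusted p = 0.018) lost its call without CN replicate 1 (0.055), E0 replicate 1 (0.062) or E2 replicate 2 (0.074). Slc36a4 (0.017) lost it without E0 replicate 2 (0.054) or E2 replicate 1 (0.061), and Slc6a6 (0.013) without E0 replicate 2 (0.052) or E2 replicate 1 (0.059).

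The remaining 8 differences of responses were the least stable. Slc38a5 lost its call without any of the 8 libraries (adjusted p 0.051 to 0.13). Slc2a8 held only without E2 replicate 2, Slc3a1 without E1 replicate 1 and Slc38a7 without E0 replicate 1, and their p-values otherwise reached 0.10, 0.14 and 0.14. Slc6a12 and Slc7a11 held without 2 of the 8 libraries and otherwise reached 0.12 and 0.087, Slc16a6 likewise reached 0.10, and Slc1a4 held without 3 of the 8 and otherwise reached 0.12. The controls of these responses differed too. Slc16a9 was 6.73 ± 0.607 CPM in CN and 19.9 ± 0.254 in E0, Slc7a5 17.0 ± 7.96 and 4.64 ± 0.916, Slc7a11 59.3 ± 1.44 and 95.4 ± 2.07, and Slc16a10 4.58 ± 1.19 and 13.6 ± 2.28. IL-5 and the experiment cannot be told apart in these levels, which were not tested.

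Partners of the transporters were read from fixed lists beside them. Of 11 partners and trafficking regulators, 1 rose and 2 fell in E1, and 3 rose and 3 fell in E2, where 17.3% and 35.5% of all genes were called. The median log2 fold changes were 0.01 and 0.07. Emb (embigin), a chaperone of monocarboxylate transporters, fell in both comparisons, from 72.6 ± 6.27 to 43.5 ± 6.35 CPM in E1 (log2 -0.74 ± 0.17, adjusted p = 0.019) and from 117 ± 11.1 to 15.0 ± 3.78 CPM in E2 (log2 -2.96 ± 0.18, adjusted p = 2.0e-05). Bsg (basigin), the partner of Slc16a1 and Slc16a3, was 130 ± 9.83 CPM in E0 and rose to 152 ± 11.5 in E2 (log2 0.23 ± 0.07, adjusted p = 0.044). Arrdc4, an arrestin that removes glucose transporters from the surface, rose from 3.68 ± 0.245 to 17.1 ± 0.104 CPM in E2 (log2 2.21 ± 0.17). Txnip of the same list, named here after its values were seen, was far more abundant and was called in neither comparison. It stood at 1119 ± 23.6 CPM in E0 and 1019 ± 5.39 in E2 (log2 -0.13 ± 0.10). Nedd4, a ubiquitin ligase, rose by log2 0.85 ± 0.11 in E2, its relative Nedd4l fell by 0.80 in E1 on the log2 scale, and the kinase Sgk1 fell by log2 -1.74 ± 0.13 in E2.

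Of 36 genes of amino acid sensing by mTORC1 and its regulators, 1 rose and 3 fell in E1, against 17.3% of all genes called, and 4 rose and 3 fell in E2, against 35.5%, with medians of -0.07 and 0.03. In E2 Sesn1, which restrains mTORC1 at low leucine (log2 -0.50 ± 0.10), and Flcn, which acts on the Rag GTPases (-0.56 ± 0.13), were among the genes that fell. Sec13 (0.47 ± 0.09), Rptor (0.37 ± 0.12) and Lars (0.21 ± 0.07) rose. Of 23 genes of ATF4 and the amino acid response, 2 rose and 0 fell in E1 (17.3% of all genes called), and 10 rose and 6 fell in E2 (35.5% called), with medians of 0.05 and 0.31. In E2 Psat1 of serine synthesis rose from 3.60 ± 0.193 to 16.8 ± 0.376 CPM and Mthfd2 of folate metabolism from 11.3 ± 2.16 to 37.3 ± 3.83 CPM, and Nupr1 rose by log2 3.22 ± 0.21. The kinases Eif2ak3 (log2 -0.62 ± 0.08) and Eif2ak1 (-0.35 ± 0.06) fell, with Ddit4 (-0.79 ± 0.10), an inhibitor of mTORC1.

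Of 31 enzymes that use the carried amino acids, 10 rose and 5 fell in E1, beside 17.3% of all genes called, and 12 rose and 6 fell in E2, beside 35.5%, with medians of 0.10 and 0.19. In E1 the tryptophan tRNA ligase Wars rose from 66.9 ± 7.53 to 1317 ± 79.9 CPM (log2 4.30 ± 0.11). Nos2, which makes nitric oxide from arginine, rose from 2.68 ± 0.176 to 46.8 ± 15.8 CPM, and Ass1, which remakes arginine from citrulline, from 1.25 ± 0.0118 to 14.7 ± 0.0730 CPM. Arg2, a mitochondrial arginase, fell by log2 -1.02 ± 0.23. In E2 the phenylalanine oxidase Il4i1 rose from 13.6 ± 1.66 to 45.1 ± 3.79 CPM, and Bckdha of branched-chain amino acid breakdown fell from 32.5 ± 2.02 to 9.25 ± 1.30 CPM (log2 -1.81 ± 0.15).

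Of 29 genes of glucose and lactate metabolism, 6 rose and 1 fell in E1 (of all genes, 9.19% rose and 8.08% fell) and 15 rose and 4 fell in E2 (17.0% and 18.5%), with medians of 0.13 and 0.27. Hk1, which traps glucose as its phosphate, rose in E1 from 181 ± 8.89 to 305 ± 27.1 CPM (log2 0.76 ± 0.08), and G6pdx, the entry to the pentose phosphate pathway, by log2 0.46 ± 0.07. In E2 the glycolytic enzymes Pgk1 (log2 1.04 ± 0.08), Pfkp (1.02 ± 0.08) and Tpi1 (0.95 ± 0.12) rose, and Pgd of the pentose phosphate pathway fell (-0.47 ± 0.09). Among 28 carriers outside the 9 families, 3 rose and 3 fell in E1 and 2 rose and 6 fell in E2, beside the 17.3% and 35.5% of all genes called. Slc44a1, a choline transporter, fell in both, by log2 -0.75 ± 0.10 in E1 and -1.32 ± 0.10 in E2.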

How the data were processed

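The deposited table held raw counts per Ensembl gene, made by the authors with STAR and featureCounts on mm10, per the submitters' processing notes. The sources used here do not give tool versions, annotation, strand setting or the handling of multiply mapped reads. Libraries came from a stranded mRNA kit, per the labels' protocols. One row without a gene name equalled the column totals (100% of the named counts) and was left out. Of the IDs, 15730 matched a symbol and 187 did not.

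The test was edgeR 4.0.16 under R 4.3.3, using filterByExpr (4 genes removed, 15913 tested), TMM scaling and 1 mean per group over all 8 libraries, with 4 residual degrees of freedom. The two-sided quasi-likelihood F test was adjusted over all genes, and called means an adjusted p below 0.05. The code was tested on simulated data. Values are TMM-scaled CPM as mean ± SD, log2 fold changes carry ± SE, and levels per kb use GENCODE M21 union exons. The SD, SE and p-values hold the spread between libraries.

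Alternatives were other scalings and filters, the 4 libraries of a contrast alone, a replicate block, each library left out, limma-voom (limma 3.58.1) and DESeq2 1.42.0. Transporters called in any contrast at 5 CPM or more were named, with a fixed set whatever its result, uncalled genes at 10 CPM or more, and up to 3 genes each way of the other lists at 10 CPM or more. The genes and lists were chosen with earlier results of these data known, and no list is independent evidence.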

Additional observations from a re-analysis of the deposited data

How the results depend on the processing

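The counts of called transporters in E2 against E0 stayed within 1.5 times the reported 18 higher and 10 lower under every alternative tried. In E1 against CN they moved further from 5 higher and 10 lower. Scaling by library totals alone gave 16 lower, and the 4 libraries of the comparison alone gave 3 higher, losing the calls of Slc3a2, Slc6a6, Slc16a5, Slc38a2 and Slc43a3. With each library left out in turn, the counts were 4 to 5 higher and 8 to 10 lower in E1, 13 to 14 higher and 7 to 8 lower in E2, and 9 to 14 higher and 5 to 6 lower for the difference of responses. DESeq2 called 5 higher and 11 lower in E1, 19 and 10 in E2, and 18 and 7 for the difference. Where 1 library of a group was left out, the lone library was assumed to vary like the other groups.

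Replicate numbers are shared between groups, but the labels do not say that they pair the samples. Deviations from the group means correlated between same-numbered libraries of CN and E1 (r = 0.64) and of E0 and E2 (r = 0.72) across 13285 genes, which are not independent replicates. A replicate block within each experiment called 8 higher and 17 lower in E1, 22 and 14 in E2, and 23 and 11 for the difference. The replicate number goes with sex in these libraries, and whether it also marks the same animals is not known. The block lost none of the calls and gained 10, 8 and 10. Among genes described as not called, it gained Slc1a5 (adjusted p = 0.00054), Slc2a9 (0.044), Slc7a1 (0.048), Slc16a9 (0.011), Slc38a6 (0.0042) and Slc43a2 (0.0070) in E1, and Slc1a4 (0.020), Slc6a6 (0.0070), Slc16a10 (0.031), Slc36a1 (0.0031), Slc38a2 (0.011) and Slc38a10 (0.025) in E2. Over all genes, the counts moved from 1463 higher and 1286 lower to 2786 and 2734 in E1, from 2711 and 2944 to 4145 and 4369 in E2, and from 1798 and 2220 to 3212 and 3609 for the difference. With a library left out they fell as low as 1133 and 743 in E1, 1569 and 1765 in E2, and 1177 and 1538 for the difference, and the 4 libraries alone gave 775 lower in E1.

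Signs turned only for genes that were not called. With each library left out in turn, the log2 fold change in E1 ran from -0.065 to 0.0087 for Slc2a1, -0.033 to 0.36 for Slc7a1, -0.52 to 0.46 for Slc7a5, -0.00057 to 0.54 for Slc7a7, -0.074 to 0.025 for Slc7a8 and -0.30 to 0.052 for Slc36a4. In E2 it ran from -0.56 to 0.014 for Slc7a7 and from -0.073 to 0.083 for Slc16a3. With library totals alone it was -0.030 for Slc38a9 in E1 and -0.0068 for Slc16a3 in E2. The cause was not tested. The precision was limited by the spread between the 2 libraries of a group.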
